A study of Mus musculus with 15 samples.

Results

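The transcripts of 8 megakaryocyte and platelet genes, *Itga2b*, *Itgb3*, *Gp1bb*, *Gp5*, *Gp9*, *Pf4*, *Ppbp* and *Vwf*, were examined in erythro-myeloid progenitors (EMPs) of the mouse yolk sac (YS) at E10.5. The genes were chosen by name, as genes known for their use in megakaryocytes and platelets, and all 8 were among the 17454 genes of the RNA-seq table. The 15 libraries fell into 4 groups. All embryos were C57BL/6 and carried *Ezh2*fl/fl, so that both WT groups held the floxed alleles as well. The 3 Tie2-Ezh2-WT and 2 Vav-Ezh2-WT libraries came from embryos without Cre, and 5 libraries each of Tie2-Ezh2-KO and of Vav-Ezh2-KO from embryos with 1 copy of Tie2-Cre or Vav-iCre (Vav-Cre in the labels). Tie2-Cre acts in endothelium, from which EMPs arise, and therefore also in their progeny, whereas Vav-iCre acts in blood cells once they have formed. Each library was made from sorted EMPs of an individual YS, with 500 cells per library in the sample labels and a smaller number in the study's methods. The study's libraries came from more than 1 independent experiment, and the labels do not say which library belongs to which, so no batch could be taken into account. Throughout, WT stands for the 5 libraries without Cre together.

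Megakaryocytes are the large bone marrow and fetal liver cells that shed platelets, and the YS makes the earliest of them in the embryo. EMPs give rise to megakaryocytes as well as to erythroid and myeloid cells. Platelets hold on to damaged vessels through the GPIb-IX-V complex, a receptor for von Willebrand factor, and bind each other through the integrin of αIIb and β3, while their alpha granules store chemokines that are released on activation. *Itga2b* encodes CD41, on which the EMPs were sorted together with KIT and CD16/32, so its presence in every library follows from the sort and is not a finding. The gate also left out cells positive for SCA1 or lineage markers, and antibodies to F4/80 of macrophages and TER119 of erythroid cells are among those the study lists.

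Expression was given in RPKM, which divides the reads of a gene by its length and by the reads of the library. Reads on genes were recovered from these values and ranged from 10407398 to 41025074 per library, with a median of 16091836. *Ezh2* itself was at 36.9, 39.5 and 30.1 RPKM in Tie2-Ezh2-WT libraries 4, 10 and 12 and at 42.0 and 41.5 RPKM in Vav-Ezh2-WT libraries 4 and 6. In Tie2-Ezh2-KO libraries 7, 9, 11, 13 and 17 it was at 27.8, 26.2, 24.8, 29.5 and 26.5 RPKM, below every WT library (difference in mean log2(RPKM + 0.2) of -0.48, two-sided exact permutation p = 0.00794, the smallest that 5 against 5 libraries allow). In Vav-Ezh2-KO libraries 1, 9, 10, 26 and 28 it was at 33.7, 42.4, 37.8, 38.1 and 34.0 RPKM and overlapped WT. Most of the transcript is outside the floxed SET domain exons, so the RPKM of the whole gene does not check the deletion.

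Markers of other cell types were read in the same libraries. All 9 EMP markers had means above 1 RPKM, with *Cd34* the most abundant, and summed to 307.9 to 385.2 RPKM in Tie2-Ezh2-KO, 390.6 to 461.6 RPKM in WT and 319.1 to 423.5 RPKM in Vav-Ezh2-KO. These sums did not overlap between Tie2-Ezh2-KO and WT. Taken singly, each EMP marker had a negative difference from WT in Tie2-Ezh2-KO in limma, but none passed the test over all genes. The lowest adjusted p in limma was 0.131, for *Fcgr3* and *Fcgr2b*, and that of *Cd34* was 0.750. Of 9 visceral endoderm markers, 5 had means above 1 RPKM, and their summed level was 150.5 RPKM in Tie2-Ezh2-WT 4 and 224.5 RPKM in Tie2-Ezh2-KO 7 against 1.72 to 12.7 RPKM in the other 13 libraries. *Apoa1* was the most abundant of them, and *Hnf4a* and *Apob* reached no more than 20 and 7 reads. Results that rest on these 2 libraries are given with and without them. The 8 primitive erythroid markers summed to 345.4, 610.3, 889.3, 231.7 and 316.3 RPKM in Tie2-Ezh2-KO 7, 9, 11, 13 and 17 and to 91.1 to 184.5 RPKM in the other 10 libraries, without overlap. *Hbb-bh1* was the most abundant of these, 7 of 8 had means above 1 RPKM, and *Slc4a1* stayed at or below 0.386 RPKM. The 9 macrophage markers summed to 8.16 to 27.8 RPKM, 2 of them with means above 1 RPKM and *Cd68* the most abundant, while *C1qa* was at 0 in all libraries and *Timd4* reached 1 read. Of 11 endothelial markers 10 were measured and 8 had means above 1 RPKM. They summed to 139.4 to 188.9 RPKM, mostly *Egfl7*, with *Cdh5* and *Cldn5* at or below 0.349 and 0.351 RPKM. Of 6 mast cell and basophil markers 4 were measured, with *Mcpt8* at 0 in all libraries and *Cpa3* the most abundant, and they summed to 9.25 to 36.7 RPKM in Tie2-Ezh2-KO, 32.0 to 86.5 RPKM in WT and 32.2 to 97.7 RPKM in Vav-Ezh2-KO.

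By mean level over the 15 libraries, on the RPKM scale, the order was *Pf4* (69.8 RPKM), *Gp9* (40.03), *Itga2b* (29.3), *Gp1bb* (17.7), *Gp5* (16.3), *Itgb3* (3.16), *Ppbp* (1.97) and *Vwf* (0.209). *Pf4* was above 90.0% of the 17454 genes by mean level and *Vwf* above 31.3%. Some neighbours in this order did not differ beyond their spread. *Pf4* was above *Gp9* in 9 of 15 libraries, and *Gp1bb* was above *Gp5* in 10 of 15. *Gp9* exceeded *Itga2b* in 14 of 15 libraries, *Itga2b* exceeded *Gp1bb* in 14, *Itgb3* exceeded *Ppbp* in 14 and *Ppbp* exceeded *Vwf* in 14. The widest step without exception lay between *Gp5* and *Itgb3*, where *Gp5* was 3.21 to 8.56 times as high in all 15 libraries.

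**Figure D1:**
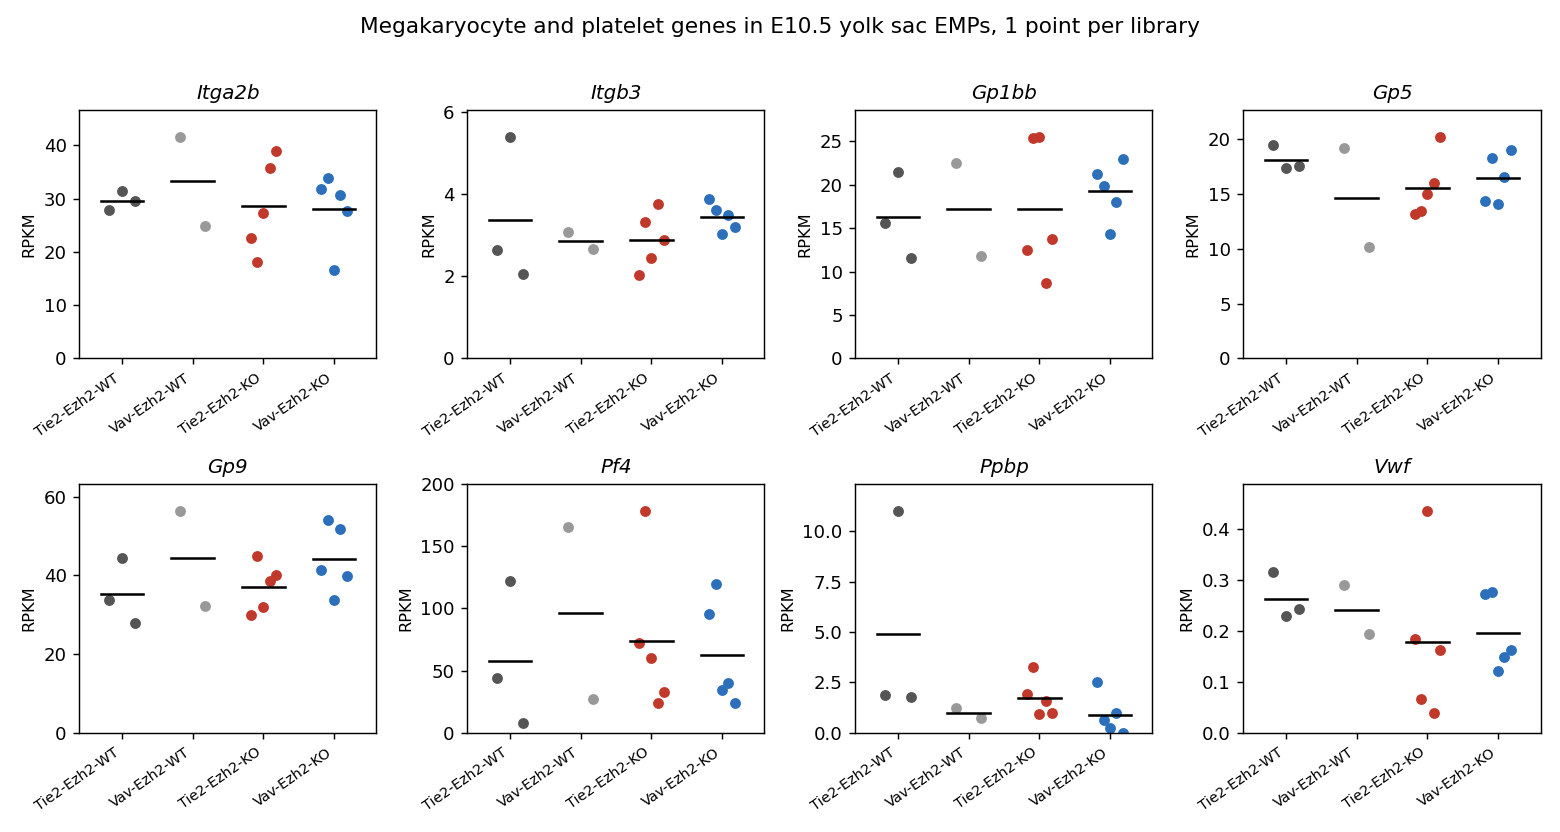
RPKM of the 8 megakaryocyte and platelet genes on linear axes that start at 0, with 1 point per library in the 4 groups and a horizontal line at the mean of each group. For every gene both knockout groups overlap the 5 WT libraries, and *Pf4* spreads from 7.71 to 178.6 RPKM while *Gp5* stays between 10.1 and 20.3 RPKM.

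The integrin subunits were present at unequal levels. *Itga2b*, which encodes αIIb, was at 28.0, 31.5 and 29.5 RPKM in Tie2-Ezh2-WT 4, 10 and 12 and at 41.7 and 24.9 RPKM in Vav-Ezh2-WT 4 and 6. *Itga2b* in Tie2-Ezh2-KO 7, 9, 11, 13 and 17 was at 22.6, 18.2, 27.3, 35.7 and 38.9 RPKM, and in Vav-Ezh2-KO 1, 9, 10, 26 and 28 at 31.8, 33.9, 16.7, 30.7 and 27.6 RPKM. The groups overlapped throughout, with Vav-Ezh2-WT 4 the highest library and Vav-Ezh2-KO 10 the lowest. *Itga2b* averaged 31.1 ± 6.38 (SD) RPKM in WT, 28.5 ± 8.70 RPKM in Tie2-Ezh2-KO and 28.1 ± 6.81 RPKM in Vav-Ezh2-KO (n = 5 each). The difference in mean log2(RPKM + 0.2) from WT was -0.16 ± 0.20 (SE) in Tie2-Ezh2-KO and -0.16 ± 0.18 (SE) in Vav-Ezh2-KO, adjusted p = 0.899 and 0.847 in limma. Expressed as a fold of RPKM + 0.2, the 95% intervals were 0.667 to 1.21 and 0.682 to 1.17.

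*Itgb3*, which encodes the β3 partner of αIIb, was at 2.64, 5.39 and 2.05 RPKM in Tie2-Ezh2-WT 4, 10 and 12 and at 3.07 and 2.66 RPKM in Vav-Ezh2-WT 4 and 6. *Itgb3* in Tie2-Ezh2-KO 7, 9, 11, 13 and 17 was at 2.03, 3.32, 2.44, 3.75 and 2.87 RPKM, and in Vav-Ezh2-KO 1, 9, 10, 26 and 28 at 3.87, 3.61, 3.03, 3.49 and 3.19 RPKM. Tie2-Ezh2-WT 10 stood highest, all groups overlapped, and the Vav-Ezh2-KO libraries differed 1.28-fold from lowest to highest. *Itgb3* averaged 3.165 ± 1.298 (SD) RPKM in WT, 2.88 ± 0.684 RPKM in Tie2-Ezh2-KO and 3.44 ± 0.333 RPKM in Vav-Ezh2-KO (n = 5 each). *Itgb3* differed from WT by -0.08 ± 0.27 (SE) in Tie2-Ezh2-KO and by 0.18 ± 0.23 (SE) in Vav-Ezh2-KO on the log2(RPKM + 0.2) scale, adjusted p = 0.972 and 0.865 in limma. The RPKM of *Itga2b* was 5.48 to 14.4 times that of *Itgb3* within a library, with a median ratio of 9.41.

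The subunits of the GPIb-IX-V complex were all read in every library. *Gp9*, the GPIX subunit, was at 33.65, 44.4 and 27.9 RPKM in Tie2-Ezh2-WT 4, 10 and 12 and at 56.4 and 32.3 RPKM in Vav-Ezh2-WT 4 and 6. *Gp9* in Tie2-Ezh2-KO 7, 9, 11, 13 and 17 was at 29.9, 44.9, 32.0, 38.5 and 40.1 RPKM, and in Vav-Ezh2-KO 1, 9, 10, 26 and 28 at 41.3, 54.0, 33.65, 51.8 and 39.7 RPKM. No Tie2-Ezh2-KO or Vav-Ezh2-KO library lay outside the WT range for *Gp9*. Its mean was 38.9 ± 11.5 (SD) RPKM in WT, 37.1 ± 6.12 RPKM in Tie2-Ezh2-KO and 44.1 ± 8.54 RPKM in Vav-Ezh2-KO (n = 5 each). Its difference from WT was -0.04 ± 0.18 (SE) in Tie2-Ezh2-KO and 0.20 ± 0.18 (SE) in Vav-Ezh2-KO on the log2(RPKM + 0.2) scale, adjusted p = 0.980 and 0.805 in limma.

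*Gp1bb*, the β chain of GPIb, was at 15.6, 21.4 and 11.6 RPKM in Tie2-Ezh2-WT 4, 10 and 12 and at 22.5 and 11.8 RPKM in Vav-Ezh2-WT 4 and 6. *Gp1bb* in Tie2-Ezh2-KO 7, 9, 11, 13 and 17 was at 12.5, 25.4, 25.5, 8.72 and 13.7 RPKM, and in Vav-Ezh2-KO 1, 9, 10, 26 and 28 at 21.2, 19.8, 14.3, 18.0 and 23.0 RPKM. Spread was widest in Tie2-Ezh2-KO, with 9 and 11 above every WT library and 13 below every WT library. *Gp1bb* averaged 16.6 ± 5.18 (SD) RPKM in WT, 17.2 ± 7.79 RPKM in Tie2-Ezh2-KO and 19.2 ± 3.33 RPKM in Vav-Ezh2-KO (n = 5 each). *Gp1bb* differed from WT by -0.02 ± 0.29 (SE) in Tie2-Ezh2-KO and by 0.25 ± 0.19 (SE) in Vav-Ezh2-KO on the log2(RPKM + 0.2) scale, adjusted p = 0.996 and 0.777 in limma. The gene shares 593 bases with *Septin5* on the same strand, and *Septin5* itself had 0 to 16 reads per library, so reads of the shared stretch cannot be told apart.

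*Gp5*, which encodes GPV, was at 19.5, 17.3 and 17.6 RPKM in Tie2-Ezh2-WT 4, 10 and 12 and at 19.2 and 10.1 RPKM in Vav-Ezh2-WT 4 and 6. *Gp5* in Tie2-Ezh2-KO 7, 9, 11, 13 and 17 was at 13.2, 13.4, 15.01, 16.1 and 20.3 RPKM, and in Vav-Ezh2-KO 1, 9, 10, 26 and 28 at 14.4, 18.3, 14.1, 16.6 and 19.0 RPKM. The highest library was Tie2-Ezh2-KO 17 and the lowest Vav-Ezh2-WT 6, with the groups overlapping. *Gp5* averaged 16.8 ± 3.82 (SD) RPKM in WT, 15.6 ± 2.87 RPKM in Tie2-Ezh2-KO and 16.5 ± 2.25 RPKM in Vav-Ezh2-KO (n = 5 each). *Gp5* differed from WT by -0.08 ± 0.19 (SE) in Tie2-Ezh2-KO, adjusted p = 0.957 in limma, and in Vav-Ezh2-KO the difference was 0.00 ± 0.17 (SE) on the log2(RPKM + 0.2) scale with a 95% interval from -0.36 to 0.37.

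The α chain of GPIb, which carries the binding site for von Willebrand factor, is encoded by *Gp1ba*, a gene of the wider platelet pathway list and not of the 8. It was at 9.58, 9.22 and 4.87 RPKM in Tie2-Ezh2-WT 4, 10 and 12 and at 10.3 and 6.59 RPKM in Vav-Ezh2-WT 4 and 6. *Gp1ba* in Tie2-Ezh2-KO 7, 9, 11, 13 and 17 was at 2.87, 3.98, 4.25, 5.42 and 3.78 RPKM, and in Vav-Ezh2-KO 1, 9, 10, 26 and 28 at 4.31, 6.51, 6.39, 8.12 and 6.84 RPKM. In Tie2-Ezh2-KO, 4 of 5 libraries lay below the lowest WT library and all 5 below the WT median, while 1 of 5 Vav-Ezh2-KO libraries lay below the lowest WT library. *Gp1ba* was lower in Tie2-Ezh2-KO than in WT by -0.94 ± 0.24 (SE) on the log2(RPKM + 0.2) scale, a fold of 0.521 with a 95% interval from 0.367 to 0.741 (limma, adjusted p = 0.0495, exact permutation p = 0.0159). This call passed the threshold of 0.05 narrowly, and 7 of 22 other settings made it, with adjusted p from 0.0174 to 0.251. The adjusted p was 0.131, 0.0640, 0.0843 and 0.103 without Tie2-Ezh2-KO 7, 9, 11 and 17 in turn, 0.121 and 0.134 without Tie2-Ezh2-WT 4 and 10, and 0.146 and 0.0702 without Vav-Ezh2-WT 4 and 6. It was 0.251 without both libraries that held visceral endoderm transcripts. It was 0.0605 with a pseudocount of 1, 0.114 without a filter on low values, 0.0563 among genes above 1 RPKM in at least 5 libraries, 0.0640 without a trend of variance on level, 0.231 against only the corresponding WT libraries and 0.108 with limma-voom. The difference was negative in all 22 settings, from -1.105 to -0.757. *Slc25a11* (91.3 to 119.6 RPKM) ends 33 bases from *Gp1ba* on the opposite strand, so transcripts that run past the end of either gene cannot be told apart without strand. *Gp1ba* differed from WT by -0.30 ± 0.22 (SE) in Vav-Ezh2-KO, adjusted p = 0.752, and between both knockouts by -0.64 ± 0.22 (SE), adjusted p = 0.131 in limma (exact permutation p of this gene alone 0.0159, 4 of 5 Tie2-Ezh2-KO libraries below the lowest of Vav-Ezh2-KO). The difference between the 2 deletions thus did not pass the test over all genes. Within the complex the order of RPKM levels had *Gp9* above *Gp1bb*, *Gp5* and *Gp1ba* in all 15 libraries, and *Gp1bb* and *Gp5* above *Gp1ba* in all 15.

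The alpha granule chemokines varied most. *Pf4*, which encodes platelet factor 4 (CXCL4), was at 43.8, 122.1 and 7.71 RPKM in Tie2-Ezh2-WT 4, 10 and 12 and at 165.8 and 26.8 RPKM in Vav-Ezh2-WT 4 and 6. *Pf4* in Tie2-Ezh2-KO 7, 9, 11, 13 and 17 was at 72.2, 178.6, 59.9, 23.8 and 32.5 RPKM, and in Vav-Ezh2-KO 1, 9, 10, 26 and 28 at 95.8, 119.9, 34.7, 39.9 and 23.5 RPKM. Every group held high as well as low libraries and overlapped the others, and the highest library, Tie2-Ezh2-KO 9, exceeded the lowest, Tie2-Ezh2-WT 12, 23.2-fold. *Pf4* averaged 73.2 ± 67.6 (SD) RPKM in WT, 73.4 ± 62.0 RPKM in Tie2-Ezh2-KO and 62.8 ± 42.5 RPKM in Vav-Ezh2-KO (n = 5 each). *Pf4* differed from WT by 0.34 ± 0.70 (SE) in Tie2-Ezh2-KO and by 0.20 ± 0.68 (SE) in Vav-Ezh2-KO on the log2(RPKM + 0.2) scale, adjusted p = 0.954 and 0.958 in limma. As a fold of RPKM + 0.2 the 95% intervals ran from 0.447 to 3.56 and from 0.419 to 3.15, so neither a rise nor a fall of 2-fold could be told from no difference.

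The lowest library for *Pf4* held 186 reads, at which counting error is 7.33%. The SD of its log2(RPKM + 0.2) within groups was 1.36 (11 residual degrees of freedom), larger than that of 99.9% of the 1998 genes within 2-fold of its mean level, whose median SD was 0.18. For *Ppbp* it was 1.14, for *Gp1bb* 0.51, for *Itga2b* 0.40, for *Vwf* 0.38, for *Itgb3* 0.36, for *Gp9* 0.31 and for *Gp5* 0.27. These libraries hold few cells, and a difference in the number of *Pf4*-rich cells and in the *Pf4* RNA per cell cannot be told apart. After group means were removed, *Pf4* had r = -0.03 with the summed macrophage markers across the 15 libraries and 0.28 with the mast cell and basophil markers. With the primitive erythroid, endothelial and visceral endoderm sums r was 0.11, -0.28 and 0.23. *Pf4* can also be transcribed in macrophages, of whose 9 markers 2 had means above 1 RPKM. The part of any of these cell types in the spread of *Pf4* was not tested.

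*Ppbp*, which encodes pro-platelet basic protein (CXCL7), was at 1.87, 11.01 and 1.76 RPKM in Tie2-Ezh2-WT 4, 10 and 12 and at 1.24 and 0.742 RPKM in Vav-Ezh2-WT 4 and 6. *Ppbp* in Tie2-Ezh2-KO 7, 9, 11, 13 and 17 was at 1.92, 3.27, 0.937, 1.59 and 0.978 RPKM, and in Vav-Ezh2-KO 1, 9, 10, 26 and 28 at 2.49, 0.603, 0.220, 0.966 and 0 RPKM. Tie2-Ezh2-WT 10 stood high with 188 reads, Vav-Ezh2-KO 10 and 28 stood low with 4 and 0 reads, and both knockout groups overlapped WT and each other, while the 3 Tie2-Ezh2-WT libraries lay above both Vav-Ezh2-WT libraries. *Ppbp* averaged 3.33 ± 4.32 (SD) RPKM in WT, 1.74 ± 0.952 RPKM in Tie2-Ezh2-KO and 0.856 ± 0.986 RPKM in Vav-Ezh2-KO (n = 5 each). In the 28714656 reads of Vav-Ezh2-KO 28, a count of 0 allows up to 3 reads, and this bound covers counting error only. *Ppbp* differed from WT by -1.64 ± 0.69 (SE) in Vav-Ezh2-KO on the log2(RPKM + 0.2) scale in limma (unadjusted p = 0.0317, adjusted p = 0.604) and did not pass the test, nor did the exact permutation test (p = 0.111). Without Tie2-Ezh2-WT 10 this difference of *Ppbp* was -1.06, and against only the Vav-Ezh2-WT libraries it was -0.67. In Tie2-Ezh2-KO it differed from WT by -0.36 ± 0.55 (SE), adjusted p = 0.926, and from Vav-Ezh2-KO by 1.28 ± 0.57 (SE), unadjusted p = 0.0404 and adjusted p = 0.270 in limma (exact permutation p = 0.119).

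The last member, *Vwf*, encodes von Willebrand factor, the ligand of GPIbα that endothelium and megakaryocytes make. *Vwf* was at 0.315, 0.229 and 0.243 RPKM in Tie2-Ezh2-WT 4, 10 and 12 and at 0.289 and 0.193 RPKM in Vav-Ezh2-WT 4 and 6. *Vwf* in Tie2-Ezh2-KO 7, 9, 11, 13 and 17 was at 0.185, 0.0667, 0.435, 0.0380 and 0.162 RPKM, and in Vav-Ezh2-KO 1, 9, 10, 26 and 28 at 0.273, 0.277, 0.121, 0.148 and 0.162 RPKM. The highest and the lowest library were both Tie2-Ezh2-KO, 11 and 13, and 4 of 5 Tie2-Ezh2-KO and 3 of 5 Vav-Ezh2-KO libraries lay below the lowest WT library. These levels came from 9 to 88 reads per library, and counting error at the lowest is 33.3%. *Vwf* averaged 0.254 ± 0.0487 (SD) RPKM in WT, 0.177 ± 0.157 RPKM in Tie2-Ezh2-KO and 0.196 ± 0.0734 RPKM in Vav-Ezh2-KO (n = 5 each). *Vwf* differed from WT by -0.35 ± 0.30 (SE) in Tie2-Ezh2-KO and by -0.21 ± 0.24 (SE) in Vav-Ezh2-KO on the log2(RPKM + 0.2) scale, adjusted p = 0.842 and 0.851 in limma, with exact permutation p = 0.230 and 0.151. The pseudocount of 0.2 is as large as the level itself, so these differences understate any change. Over 21 other settings the *Vwf* difference ranged from -1.11 to -0.0996 in Tie2-Ezh2-KO and from -0.34 to -0.0696 in Vav-Ezh2-KO. Leaving out 1 library at a time, it was -0.56 to -0.205 in Tie2-Ezh2-KO.

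Taking the 8 genes by comparison, 0 of 8 passed an adjusted p of 0.05 in Tie2-Ezh2-KO against WT in limma, where 386 of 14154 genes (2.73%) did, and 0 of 8 had an unadjusted p under 0.05, as against 1552 of all genes. None of the 8 had groups that did not overlap, as against 4.01% of genes. Against the same WT libraries, 0 of 8 passed in Vav-Ezh2-KO, where 1 of 13646 genes (0.00733%) did. There *Ppbp* was the 1 member with an unadjusted p under 0.05, against 1082 genes in all, and none of the 8 had groups that did not overlap, against 1.41% of genes. Between Tie2-Ezh2-KO and Vav-Ezh2-KO 0 of 8 passed, against 495 of 14120 genes (3.51%), *Ppbp* was again the 1 member with an unadjusted p under 0.05, against 2342 genes, and none had groups that did not overlap, against 5.23% of genes. With limma-voom on the recovered reads the count was 0 of 8 in each comparison as well. The lowest adjusted p of a member was 0.842, 0.604 and 0.270 in the 3 comparisons. The median log2 difference of the 8 genes was -0.08 in Tie2-Ezh2-KO against WT, 0.09 in Vav-Ezh2-KO against WT and -0.11 between the knockouts, beside medians over all genes tested of 0.01, -0.02 and 0.04. Without both libraries that held visceral endoderm transcripts, 217 genes passed in Tie2-Ezh2-KO against WT and 0 of 8 members, in a setting chosen after the data were seen. An adjusted p above the threshold does not show equal levels, and the intervals given above are the range of differences these libraries allow.

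**Figure D2:**
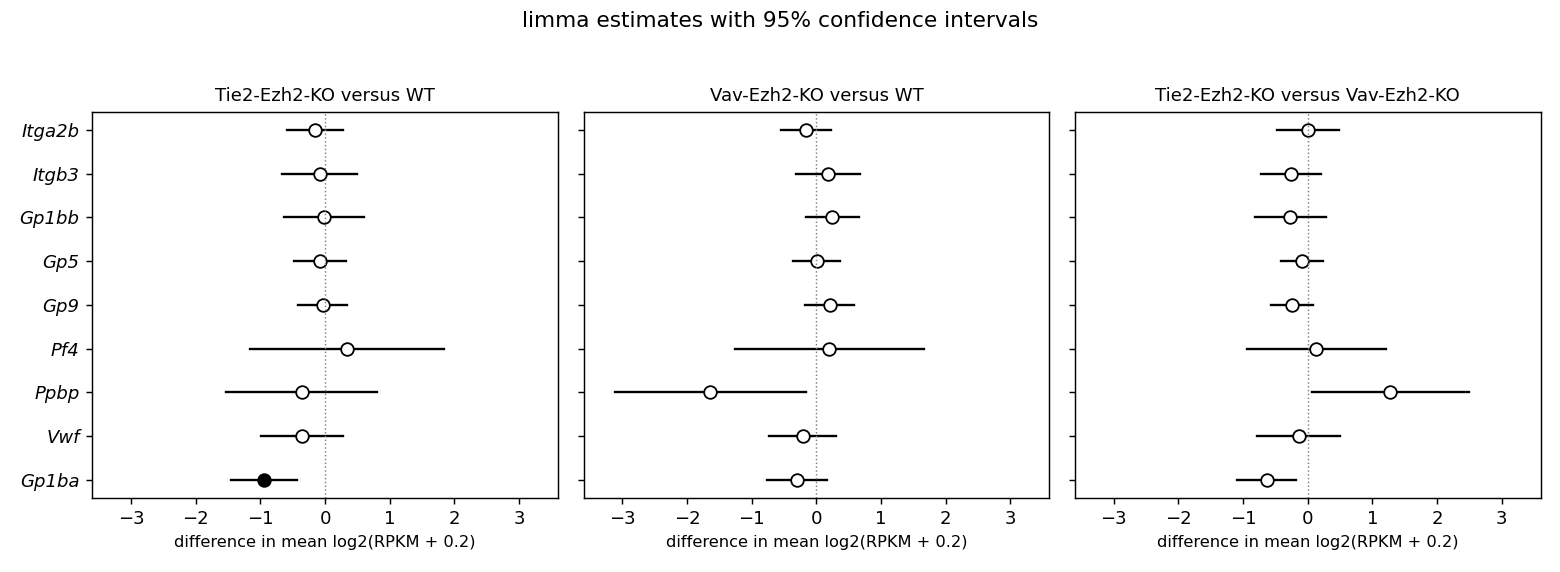
Difference in mean log2(RPKM + 0.2) of the 8 genes and *Gp1ba* in 3 comparisons, as limma estimates (circles) with 95% confidence intervals (lines), 5 libraries a side, filled where the adjusted p was under 0.05. Only *Gp1ba* in Tie2-Ezh2-KO against WT is filled, and the intervals of *Pf4* and *Ppbp* are the widest.

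Around the 8 genes, a platelet pathway list of 74 further genes in 7 roles was read, all in the table, 2 of them under an older symbol, and 65 with a mean above 1 RPKM. The gene with the highest WT level in its role was *Cd9* (125.3 RPKM) among adhesion receptors, *Rap1b* (994.7 RPKM) in integrin activation, *Srgn* (183.4 RPKM) in granule cargo, *Ptgs1* (55.5 RPKM) in thromboxane synthesis and agonist receptors, *Tpm4* (94.8 RPKM) in the cytoskeleton and *Nfe2* (228.2 RPKM) among transcription factors. In Tie2-Ezh2-KO against WT, 1 of 71 list genes tested was higher and 2 lower in limma, with a list median of -0.03 beside 0.01 over all genes, of which 2.73% passed. An unadjusted p under 0.05 was found for 18 of the 71 against 1552 of 14154 genes in all, and 7 of the 71 had groups that did not overlap, against 4.01% of genes. In Vav-Ezh2-KO against WT 0 of 72 passed in limma and 0 with limma-voom, 5 had an unadjusted p under 0.05 against 1082 of 13646 genes in all, and the list median was 0.05 beside -0.02. Between the knockouts 4 of 72 were higher and 3 lower in Tie2-Ezh2-KO, with a list median of -0.01 beside 0.04 over all genes, of which 3.51% passed. There 23 of the 72 had an unadjusted p under 0.05 against 2342 of 14120 genes, and 9 of the 72 had groups that did not overlap, against 5.23% of genes.

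*Myl9*, a myosin regulatory light chain, was the list gene that was higher in Tie2-Ezh2-KO than in WT. It was at 0.799, 0.701 and 0 RPKM in Tie2-Ezh2-WT 4, 10 and 12 and at 0.496 and 0.0925 RPKM in Vav-Ezh2-WT 4 and 6. *Myl9* in Tie2-Ezh2-KO 7, 9, 11, 13 and 17 was at 3.42, 15.9, 18.4, 1.45 and 2.12 RPKM, and in Vav-Ezh2-KO 1, 9, 10, 26 and 28 at 0.490, 0.451, 1.20, 1.123 and 0.547 RPKM. All 5 Tie2-Ezh2-KO libraries lay above every WT and every Vav-Ezh2-KO library. The log2(RPKM + 0.2) difference was 3.36 ± 0.67 (SE) from WT (limma, adjusted p = 0.0130) and 2.54 ± 0.60 (SE) from Vav-Ezh2-KO (adjusted p = 0.0288), and 19 of 22 and 12 of 22 other settings made these calls. The call against WT was lost without a filter on low values (0.105), against only the corresponding WT libraries (0.0862) and with limma-voom (0.105). The log2 difference of *Myl9* from WT stayed between 2.22 and 4.745 in all 22 settings. Libraries 9 and 11, the highest for *Myl9*, also had the highest primitive erythroid sums, 610.3 and 889.3 RPKM, and the part of other cell types in this difference was not tested.

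*Srgn*, the granule proteoglycan serglycin, was at 153.4, 171.9 and 166.3 RPKM in Tie2-Ezh2-WT 4, 10 and 12 and at 232.2 and 193.0 RPKM in Vav-Ezh2-WT 4 and 6. *Srgn* in Tie2-Ezh2-KO 9, 11, 13 and 17 was at 138.7, 90.1, 90.3 and 150.9 RPKM with library 7 at the median of these 5, and in Vav-Ezh2-KO 1, 9, 10, 26 and 28 at 244.1, 403.4, 158.9, 203.3 and 223.6 RPKM. All 5 libraries of Tie2-Ezh2-KO lay below all others, with Tie2-Ezh2-WT 4 the nearest of these. *Srgn* was lower than in WT by -0.65 ± 0.16 (SE) on the log2(RPKM + 0.2) scale (limma, adjusted p = 0.0414), and 8 of 22 other settings made this call. Its adjusted p was 0.0793, 0.102 and 0.0993 without Tie2-Ezh2-KO 7, 11 and 13 in turn, 0.0759 and 0.0606 without Tie2-Ezh2-WT 10 and 12, and 0.116 and 0.0953 without Vav-Ezh2-WT 4 and 6. It was 0.0873 without both libraries with visceral endoderm transcripts, 0.149 without a filter on low values, 0.121 without a trend, 0.0948 with scaling to a common median, 0.0926 with all 15 libraries in 1 fit, 0.303 against only the corresponding WT libraries and 0.0515 with limma-voom. The log2 difference of *Srgn* from WT stayed between -0.75 and -0.50 in all 22 settings. Against Vav-Ezh2-KO, *Srgn* was lower by -1.02 ± 0.21 (SE), adjusted p = 0.0143, in 19 of 22 other settings. *Srgn* is abundant in mast cells too, and the summed mast cell markers, nearly all *Cpa3*, were lowest in Tie2-Ezh2-KO 11 (9.25 RPKM, of which 8.41 RPKM *Cpa3*). *Ms4a2*, another mast cell marker, did not go with *Cpa3*, at 1.56, 1.42, 0.839, 0 and 1.48 RPKM in Tie2-Ezh2-KO 7, 9, 11, 13 and 17 against 0 to 0.918 RPKM in WT. The part of mast cells in the *Srgn* difference was not tested.

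Besides *Myl9* and *Srgn*, 5 list genes passed the test between the knockouts. *F11r*, the junctional adhesion molecule of platelets and endothelium, was higher in Tie2-Ezh2-KO, at 9.76 to 15.3 RPKM against 5.45 to 8.26 RPKM, by 0.90 ± 0.17 (SE) in log2 (limma, adjusted p = 0.00846). *Gfi1b*, a repressor needed for erythroid and megakaryocytic cells, was at 201.7 to 331.3 RPKM against 153.6 to 191.4 RPKM, higher by 0.57 ± 0.13 (SE), adjusted p = 0.0300. *Gfi1b* was highest in Tie2-Ezh2-KO 7, 9 and 11 (299.9, 331.3 and 282.9 RPKM), which also had the highest primitive erythroid sums. *Btk*, a tyrosine kinase downstream of collagen receptors, was at 25.6 to 37.7 RPKM against 43.6 to 59.9 RPKM, lower by -0.67 ± 0.14 (SE), adjusted p = 0.0140. *Treml1*, an alpha granule membrane receptor, was at 9.62 to 21.2 RPKM against 23.8 to 39.8 RPKM, lower by -1.04 ± 0.20 (SE), adjusted p = 0.00984. In WT, *F11r* was at 6.65 to 11.2, *Gfi1b* at 167.6 to 251.8, *Btk* at 38.5 to 50.1 and *Treml1* at 12.7 to 32.15 RPKM. None of these genes passed against WT in limma with the main settings. In that order, adjusted p was 0.267, 0.3745, 0.110 and 0.264 in Tie2-Ezh2-KO. It was 0.571, 0.644, 0.657 and 0.674 in Vav-Ezh2-KO. *F11r* was highest (15.3 and 14.1 RPKM) and *Btk* lowest (26.1 and 25.6 RPKM) in Tie2-Ezh2-KO 9 and 11, where the primitive erythroid sums were highest, and the part of primitive erythroid cells in the differences of *F11r*, *Btk* and *Gfi1b* was not tested. *Pdgfa*, a growth factor of the granules, had 1 to 7 reads in Tie2-Ezh2-KO and 0 reads in all 5 Vav-Ezh2-KO libraries, beside 0, 4 and 0 reads in Tie2-Ezh2-WT 4, 10 and 12 and 0 and 16 reads in Vav-Ezh2-WT 4 and 6, so few that its fitted difference (adjusted p = 0.0429) depends on the pseudocount and is not read as a fold. This call of *Pdgfa* was lost without Tie2-Ezh2-KO 7, 13 or 17 or any 1 of the 5 Vav-Ezh2-KO libraries, with adjusted p of 0.0821 to 0.103. Of 22 other settings, *F11r* passed in 21, *Treml1* in 20, *Btk* in 19 and *Gfi1b* in 10, and *Pdgfa* passed in 9 of 21. *Gfi1b* missed the threshold without Tie2-Ezh2-KO 7 or 11 (adjusted p = 0.0819 and 0.0751) and without Vav-Ezh2-KO 1, 9, 10 or 28 (0.0506, 0.0650, 0.0635 and 0.0833). *Gfi1b* also missed it without a filter on low values (0.0964), without a trend (0.101), with scaling to a common median (0.255) and with limma-voom (0.0822). Of the libraries with visceral endoderm transcripts, only Tie2-Ezh2-KO 7 enters this comparison. Leaving out those libraries is therefore the same fit as leaving out Tie2-Ezh2-KO 7, and both are counted among the other settings. The log2 difference of *Gfi1b* stayed between 0.48 and 0.66 in all 22 settings. With each knockout set against its own WT libraries and the difference of both effects tested, adjusted p of the 7 genes was 0.394 for *Treml1*, 0.511 for *Pdgfa*, 0.582 for *F11r*, 0.667 for *Gfi1b*, 0.797 for *Myl9*, 0.826 for *Srgn* and 0.855 for *Btk*, so that none passed. In that setting the log2 differences were -1.29 for *Treml1*, 1.83 for *Pdgfa*, 0.80 for *F11r*, 0.56 for *Gfi1b* and 2.22 for *Myl9*. They were -0.65 for *Srgn* and -0.39 for *Btk*, smaller than between the knockouts, and none of the 7 changed direction. Between the knockouts, *Myl9* missed the threshold without Tie2-Ezh2-KO 11 (0.0679) and without Vav-Ezh2-KO 1, 9 or 28 (0.0672, 0.0693 and 0.0755), and also with a pseudocount of 1 (0.0541), without a filter on low values (0.142), without a trend (0.0731), with quantile normalization (0.0592) and with limma-voom (0.159). The *Myl9* difference stayed between 1.89 and 2.96 in all 22 settings. Both comparisons with WT share the WT libraries, while the comparison between the knockouts uses none of them.

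Across libraries the 8 genes did not move as 1 group. With the mean of each group taken out, log2(RPKM + 0.2) of *Pf4* was correlated with *Gp1bb* (Pearson r = 0.70, Spearman rho = 0.72, n = 15), *Ppbp* (r = 0.68, rho = 0.71) and *Gp9* (r = 0.66, rho = 0.69). Without Tie2-Ezh2-WT 10 and 12, the libraries farthest out for *Pf4*, r was 0.65, 0.59 and 0.54. *Itga2b* went with *Gp5* (r = 0.73, rho = 0.74, and 0.76 without Tie2-Ezh2-KO 9 and Vav-Ezh2-KO 10) and had almost no relation to *Pf4* (r = 0.01, rho = 0.03), nor had *Gp5* (r = 0.08, rho = 0.02). *Itgb3* was correlated with *Gp9* (r = 0.70, rho = 0.71, and 0.62 without Tie2-Ezh2-WT 10 and 12), while its r of 0.53 with *Pf4* was 0.12 without these 2 libraries and so rested on them. *Itgb3* had r = 0.62 with *Ppbp* (rho = 0.72), and 0.44 without the same 2 libraries. Of the 28 pairs of the 8 genes, 6 (21.4%) had r above 0.6, and r of 3 of these was under 0.6 without the 2 libraries named. Other pairs rose above 0.6 when 2 libraries were left out. *Gp9* went from r = 0.51 to 0.74 with *Itga2b* (without Tie2-Ezh2-KO 9 and Vav-Ezh2-KO 10). It went from 0.47 to 0.78 with *Gp1bb* (without Tie2-Ezh2-KO 11 and 13) and from 0.51 to 0.69 with *Ppbp* (without Vav-Ezh2-KO 1 and 28). Without *Vwf*, the member with a mean under 1 RPKM, 6 of 21 pairs had r above 0.6 (28.6%, median r 0.47), against 7.54% (median r 0.04) of the pairs among 9886 genes with a mean above 1 RPKM. Of these 21 pairs, 19 had a positive r. These coefficients describe 15 libraries that share depth and composition within each library, and no p is given for them. *Gp1bb* had r = 0.61 (rho = 0.49) with the summed primitive erythroid markers, and 0.28 without Tie2-Ezh2-KO 11 and 13, on which that relation rested.

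**Figure D3:**
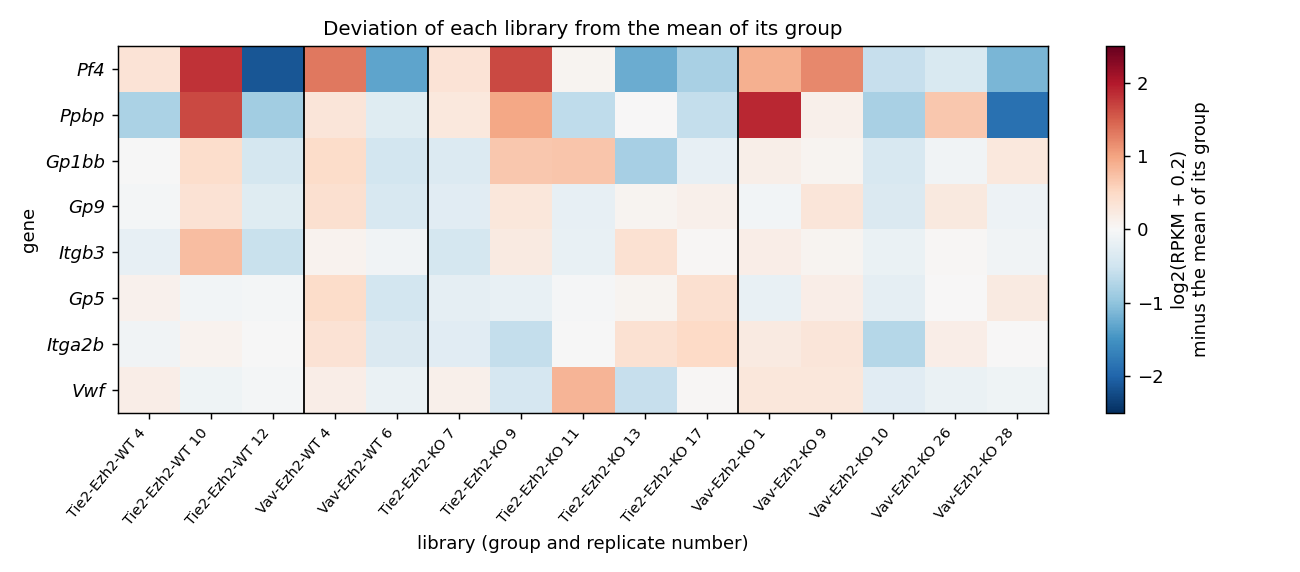
Deviation of log2(RPKM + 0.2) from the mean of its group for the 8 genes (vertical axis) in each of the 15 libraries (horizontal axis, vertical lines between groups), red above and blue below the group mean. *Pf4* and *Ppbp* deviate most, Tie2-Ezh2-WT 10 is 1.81 above its group mean for *Pf4* and Tie2-Ezh2-WT 12 is -2.14 from it.

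Averaged over the 7 genes with a mean above 1 RPKM, the deviation from the group mean was highest in Tie2-Ezh2-WT 10 (0.72) and lowest in Tie2-Ezh2-WT 12 (-0.62). Among 9814 genes outside the 8 and the pathway list, those most like this average over 15 libraries included *Dsn1* (r = 0.86), *Tmem181b-ps* (r = 0.85), *Zscan12* (r = 0.83) and *Ankrd23* (r = 0.82). Without Tie2-Ezh2-WT 10 and Vav-Ezh2-WT 4, r was 0.85, 0.87, 0.73 and 0.80 in the same order. *Tmem181b-ps* is a pseudogene and could share reads with its parent gene. Among list genes, *Cd9*, a tetraspanin of the platelet surface, had r = 0.93 with *Pf4* (rho = 0.91, and 0.91 without Tie2-Ezh2-WT 10 and 12), and *Lcp2*, the adaptor SLP-76, had r = 0.89 with *Ppbp* (rho = 0.89, and 0.86 without Vav-Ezh2-KO 1 and 28). These 2 pairs were chosen after the values were seen.

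On the genome (GRCm38, spans from RefSeq), *Ppbp* (chr5:90768518-90770063) and *Pf4* (chr5:90772435-90773383) lie next to each other on the plus strand, 2372 bases apart, in the chemokine cluster between *Cxcl5* and *Cxcl3*. *Cxcl5* was at 0 to 3.52 RPKM and *Cxcl3* at 0 to 1.60 RPKM, against 7.71 to 178.6 RPKM for *Pf4* between them. *Itga2b* (chr11:102453297-102469883, minus strand) and *Itgb3* (chr11:104608000-104670476, plus strand) are on the same chromosome without being neighbours. *Gp1bb* (chr16:18620319-18622403) and *Gp5* (chr16:30307685-30310781) are both on the minus strand of chromosome 16, and *Gp9* (chr6:87776131-87779786) and *Vwf* (chr6:125552948-125686679) both on the plus strand of chromosome 6. *Atp13a3*, on the same strand as *Gp5*, ends 1642 bases before it and was at 4.45 to 9.41 RPKM. *Cd9* adjoins *Vwf* at 58188 bases and was at 90.6 to 200.8 RPKM where *Vwf* stayed at or below 0.435 RPKM.

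Promoter sequences (RefSeq, GRCm38.p6, 250 bases before to 50 after the start) were held for 6 of the 8 genes, *Itgb3* and *Vwf* being the other two. They were searched on both strands for GATAA, the motif of GATA factors, which reads TTATC on the opposite strand. The ETS motifs searched were AGGAAG, which reads CTTCCT on the opposite strand, and CGGAAG, which there reads CTTCCG. None of the 3 motifs contains another. GATAA was in the promoters of *Pf4*, *Gp5* and *Gp9*, 3 of 6, against 25.4% of 32851 promoters. AGGAAG was in those of *Itga2b*, *Pf4*, *Gp1bb*, *Gp5* and *Gp9*, 5 of 6, against 35.4%, and CGGAAG in that of *Gp1bb*, 1 of 6, against 16.9%. In the GENCODE annotation the 120 bases before the start lay wholly in exons for *Gp1bb*, and 61 of them did for *Itga2b*, so these windows hold transcribed sequence. *Gp9* had GATAA at -43 and CTTCCT at -16 from the start in the promoter table, and *Gp1ba* had GATAA at -103, TTATC at -51 and CTTCCT at -16. For both genes that start lies inside the RefSeq span, which opens earlier, at chr6:87776131 for *Gp9*. *Ppbp* had no match to any of the 3 motifs, and the GATAA of *Pf4* lay at 38 after the start. The 120 bases before the start are shown for the adjacent chemokine genes, *Ppbp* (chr5:90768398-90768517, plus strand) and *Pf4* (chr5:90772315-90772434, plus strand), and for *Gp5* (chr16:30310782-30310901, minus strand), the member with the most steady level, 5′ to 3′ with motif matches in capitals. A match is a description of the letters and was not tested for binding.
Ppbp: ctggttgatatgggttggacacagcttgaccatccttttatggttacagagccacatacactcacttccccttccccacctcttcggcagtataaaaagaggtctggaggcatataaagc
Pf4: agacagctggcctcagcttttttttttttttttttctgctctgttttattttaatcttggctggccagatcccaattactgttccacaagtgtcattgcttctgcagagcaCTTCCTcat
Gp5: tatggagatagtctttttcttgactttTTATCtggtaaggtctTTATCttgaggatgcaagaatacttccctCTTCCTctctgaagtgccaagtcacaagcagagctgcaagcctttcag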

How the data were processed

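RNA-seq of EMPs was made with the SMARTer kit, 16 cycles of PCR, Nextera XT and 75 bp single-end sequencing. The authors aligned reads with TopHat2 2.0.13 to GRCm38/mm10, counted them per RefSeq gene with featureCounts and deposited RPKM on a linear scale, which does not correct for composition. Reads per library were recovered from the steps between low RPKM values, and the reads so obtained were whole numbers, within 0.001, for each of the 16877 genes with any expression. PCR reads are not independent molecules. limma 3.58.1 in R 4.3.3 (lmFit, eBayes with trend) was applied to log2(RPKM + 0.2) of genes that exceeded 0.2 RPKM in 1 or more libraries, with Benjamini-Hochberg adjustment over all genes and a threshold of 0.05. Single genes also had two-sided exact permutation tests. Named genes were the 8 members, list genes past the threshold, the most abundant gene of each role, neighbours and the 5 most alike genes, some of which are not reported here. Members and lists were chosen with earlier results of these data known. Sequences came from RefSeq and exons from GENCODE. Alternatives covered pseudocounts, filters, scaling, array weights, limma-voom, other sets of WT libraries and leaving out each library.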

Additional observations from a re-analysis of the deposited data

Results flagged for a closer look

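Among the 8 genes and *Gp1ba*, 2 of 27 groups of 5 libraries held a library far from the rest on the log2(RPKM + 0.2) scale, and chance puts about 1 in 20 groups there. *Itga2b* was at 16.7 RPKM in Vav-Ezh2-KO 10, its gap to the next library taking up a share of 0.711 of the range of that group in log2(RPKM + 0.2). *Gp5* was at 10.1 RPKM in Vav-Ezh2-WT 6, with a share of 0.821 of the range of the 5 WT libraries on the same log2 scale.

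Levels differed between the knockouts for 7 of 72 genes of the platelet pathway list in limma, where 3.51% of all genes tested passed. Set against its own WT libraries, the effect of each deletion did not differ from that of the other past the threshold for any of the 7, with adjusted p from 0.394 (*Treml1*) to 0.855 (*Btk*), and the call between the knockouts was made in 10 of 22 other settings for *Gfi1b* and 9 of 21 for *Pdgfa*. With each knockout against its own WT libraries, the differences were -1.29 for *Treml1*, 1.83 for *Pdgfa*, 0.80 for *F11r*, 0.56 for *Gfi1b* and 2.22 for *Myl9*. Those of *Srgn* (-0.65) and *Btk* (-0.39) were smaller than between the knockouts, and none of the 7 changed direction. In log2(RPKM + 0.2) of Tie2-Ezh2-KO minus Vav-Ezh2-KO, the differences were 0.90 for *F11r*, -0.67 for *Btk*, -1.02 for *Srgn*, 1.07 for *Pdgfa* (a fitted value that depends on the pseudocount and is not a fold, with 0 reads in all Vav-Ezh2-KO libraries), -1.04 for *Treml1*, 2.54 for *Myl9* and 0.57 for *Gfi1b*. None of the 8 megakaryocyte and platelet genes was among them.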

How the results depend on the processing

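No member passed the threshold under any alternative, with a lowest adjusted p of 0.0905. Of 524 values for members, 481 kept their direction and 43 did not. With only the corresponding WT libraries, log2 differences turned to 0.0023 for *Gp1bb* and 0.081 for *Gp9* (Tie2-Ezh2-KO against WT), -0.36 for *Pf4* (Vav-Ezh2-KO against WT), and -0.34 for *Ppbp* and 0.056 for *Gp9* (between knockouts). With array weights they turned to -0.26 for *Pf4*, -0.026 for *Gp5* and -0.28 for *Pf4* in the same order of comparisons. *Itga2b* between knockouts turned to -0.00073 with quantile normalization, -0.050 with scaling to a common median and -0.023 with limma-voom, where *Pf4* turned to -0.038. Without the libraries with visceral endoderm transcripts, chosen after seeing the data, *Gp1bb* and *Gp5* turned to 0.058 and 0.034 (Tie2-Ezh2-KO against WT).

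Genes called in Tie2-Ezh2-KO against WT were 230 for genes above 1 RPKM in at least 5 libraries, 187 with the corresponding WT and 217 without the visceral endoderm libraries, and list genes 0 without a filter, 0 with the corresponding WT, 1 with limma-voom and 1 without the visceral endoderm libraries. In Vav-Ezh2-KO against WT, 2 genes were called with a common median, 2 with the corresponding WT and 0 with limma-voom. Between knockouts, 304 genes were called without a filter, 26 with the corresponding WT and 765 with array weights, and list genes were 2 without a filter, 3 without trend and 0 with the corresponding WT. Against WT, fewer libraries enter with the corresponding WT. Between knockouts, that setting tests another quantity, each knockout minus its own WT libraries and then the difference of both, with the WT libraries added. Otherwise the cause was not tested.

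Leaving out 1 library at a time, log2 differences in Tie2-Ezh2-KO against WT ranged from -0.21 to 0.12 for *Itgb3*, -0.29 to 0.80 for *Pf4*, -0.68 to 0.21 for *Ppbp*, -0.19 to 0.19 for *Gp1bb* and -0.15 to 0.11 for *Gp9*, with 1 to 3 list genes called (1 without Tie2-Ezh2-KO 7 or 11, Tie2-Ezh2-WT 10 or Vav-Ezh2-WT 4). In Vav-Ezh2-KO against WT they ranged from -0.24 to 0.014 for *Itga2b*, -0.43 to 0.67 for *Pf4* and -0.17 to 0.065 for *Gp5*, with 1 to 2 genes called (2 without Tie2-Ezh2-WT 10 or 12 or Vav-Ezh2-WT 4). Between knockouts they ranged from -0.17 to 0.15 for *Itga2b*, -0.28 to 0.45 for *Pf4* and -0.35 to 0.0050 for *Vwf*, with 320 (without Vav-Ezh2-KO 28) to 969 (without Tie2-Ezh2-KO 9) genes and 4 to 10 list genes called (4 without Vav-Ezh2-KO 1, 9 or 28). No paired analysis was made, because each library came from an individual YS and the labels name no pairs of libraries. Depth limits *Vwf* and *Ppbp*, with as few as 9 and 0 reads.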
